A study of Mus musculus with 4 samples.

Results

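The genes Mitf, Kit, Kitl and Gpr143 were followed on microarrays of mouse embryonic stem cells in which the Polycomb gene Mtf2 was targeted by RNA interference (RNAi). Their array features, that is the spots whose platform annotation carries 1 of these 4 gene symbols, number 33 of 45220: 11 for Mitf, 10 for Kit, 11 for Kitl and 1 for Gpr143. Every one of these spots was kept. The 4 genes were chosen with their Mtf2 RNAi minus control differences known, so those differences are described here without a test.

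Mitf encodes a basic helix-loop-helix leucine zipper transcription factor that directs the development of melanocytes and also acts in mast cells, osteoclasts and the retinal pigment epithelium. Kit is the receptor tyrosine kinase for Kit ligand (Kitl, stem cell factor). Signalling from Kit keeps melanocyte precursors, primordial germ cells, mast cells and blood progenitors alive, and in melanocytes it leads to phosphorylation of Mitf. Gpr143 is a receptor of the melanosome membrane, the gene of ocular albinism in humans, and is transcribed under the control of Mitf in pigment cells. Kit is known to be transcribed in mouse embryonic stem cells, whereas pigment genes are not characteristic of them.

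The cells were E14 mouse embryonic stem cells, 1 established line, transfected with a plasmid by lipofectamine, with puromycin (1 mg/ml as the labels state it) started a day later and the cells harvested after 2 days in it. The Mtf2 RNAi arm held the plasmids pSuper-Mtf2-RNAi-1 (hairpin 1) and pSuper-Mtf2-RNAi-3 (hairpin 3). The control arm held pSuper-Luciferase-RNAi (luciferase hairpin) and the vector pSuper without insert (empty vector). Each plasmid has 1 array, so the 2 plasmids of an arm stand in for replicates and their spread includes the difference between plasmids. Whether the arrays came from separate cultures of each plasmid is stated only as independent experiments in the design text. Levels below are deposited intensities multiplied by 1 factor per array so that the 75th percentile is 23.0 units on all 4. A level under 1 unit was set to 1, called the floor, before the log.

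Of the 4 Mtf2 features, 3 were lower with either Mtf2 hairpin than with either control plasmid, with differences from -1.08 to -0.78 log2, and the fourth (feature 321) read 0.19 log2. The median feature of an array lay at 3.05 to 3.20 scaled units. The 4 arrays correlated at Pearson r of 0.945 to 0.979 over the 35102 features above the floor on at least 1 array, with the empty-vector array the lowest in each of its 3 pairs (0.945 to 0.949). That array had 1681 positions whose neighbours were shifted by over 0.5 log2, against 8 to 23 on the others, and none of the 33 features lies at such a position on any array. With limma over the 35102 features, 0 passed an adjusted p of 0.05 (0%) and 1467 had an unadjusted p under 0.05. Arms did not overlap, meaning both Mtf2 RNAi arrays lay on 1 side of both control arrays, in the higher direction for 14.7% of features and in the lower direction for 17.5%.

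Mitf read lower in the Mtf2 RNAi arm. As the median over its 11 features, its scaled intensity was 3.59 with hairpin 1 and 4.19 with hairpin 3, against 5.41 with the luciferase hairpin and 6.42 with the empty vector. The arms did not overlap, and the order of the arrays was hairpin 1, hairpin 3, luciferase hairpin, empty vector from low to high. On the log2 scale the level was 1.96 ± 0.16 in the Mtf2 RNAi arm and 2.56 ± 0.17 in the control arm (SD, n = 2 arrays each). The difference was -0.60 log2, or 0.658 of control. These are dim spots, within a few units of the median feature of the array.

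Single Mitf features showed the same direction on 10 of 11 spots, with differences from -1.29 to 0.29 log2. On 8 of the 11 the arms were apart with Mtf2 RNAi lower, and none had them apart in the other direction. Feature 6928 had the lowest difference, -1.29 log2, with 2.13 and 2.89 units with hairpins 1 and 3 against 5.72 with the luciferase hairpin and 6.42 with the empty vector. Feature 43900 went against the rest on hairpin 1, at 7.32 units, while hairpin 3 read 2.78, the luciferase plasmid 6.69 and the empty vector 6.64. Feature 28538 read 3.65 units with hairpin 1, 4.19 with hairpin 3 and 4.86 with the luciferase hairpin, and was high on 1 array alone, at 12.7 units with the empty vector. Feature 19708 stood apart from the other 10: its scaled values were 0 with hairpin 1, 1.49 with hairpin 3, -0.13 with the luciferase hairpin and 0.42 with the empty vector. The annotation gives all 11 spots the same transcript accession, and whether feature 19708 carries another probe sequence is not given in the sources used here.

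The neighbours in the order of Mitf levels were close. Hairpin 3 read above hairpin 1 on 10 of 11 features, with a gene-level difference of 0.22 log2, and the middle 50% of spots ran from 3.53 to 5.11 units with hairpin 3 and from 2.60 to 3.76 with hairpin 1. Hairpin 3 read below the luciferase hairpin on 9 of 11 features. The luciferase hairpin read below the empty vector on 8 of 11 features and above it on 2, with a gene-level difference of -0.25 log2. Spots on 1 array share the same RNA, so their agreement speaks to the measurement on that array and not to the spread between cultures.

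**Figure D1:**
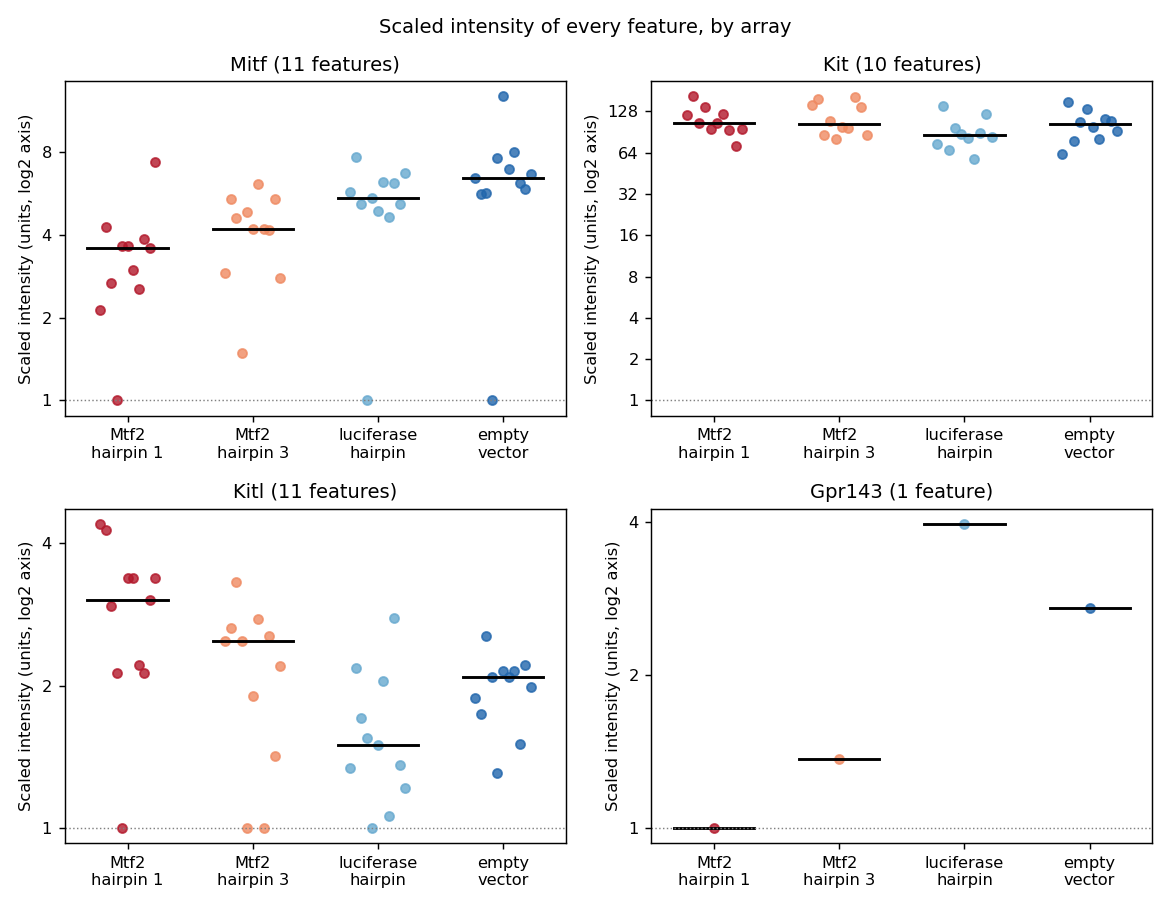
Scaled intensity (units, log2 axis) of every feature of Mitf, Kit, Kitl and Gpr143 on the 4 arrays, with the Mtf2 hairpins left of the controls; points are single features, black bars the median over features, and the dotted line the floor of 1 unit, at which lower values are drawn. Mitf medians are 3.59 and 4.19 units with the Mtf2 hairpins and 5.41 and 6.42 in the controls, and Kitl medians are 3.03 and 2.48 against 1.50 and 2.09.

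Mitf has several alternative starts, and the RefSeq table of the mouse assembly GRCm38.p6 gives 3 windows for it. The first and the last are shown because they differ most in CG dinucleotides, the sequence class that Mtf2 is known to bind when unmethylated. Each run is the 250 bases before an annotated start, on the plus strand. The first has CG dinucleotides in capitals. In the last, the capitals mark the cyclic AMP response element TGACGTCA, through which the melanocyte promoter of Mitf is known to answer to cyclic AMP.
Mitf, chr6:97806808-97807057: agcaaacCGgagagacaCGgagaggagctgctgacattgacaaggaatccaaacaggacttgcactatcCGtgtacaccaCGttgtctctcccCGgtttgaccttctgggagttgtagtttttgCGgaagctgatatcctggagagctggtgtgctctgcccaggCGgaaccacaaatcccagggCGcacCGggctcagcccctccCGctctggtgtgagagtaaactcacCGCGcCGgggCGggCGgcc
Mitf, chr6:97991533-97991782: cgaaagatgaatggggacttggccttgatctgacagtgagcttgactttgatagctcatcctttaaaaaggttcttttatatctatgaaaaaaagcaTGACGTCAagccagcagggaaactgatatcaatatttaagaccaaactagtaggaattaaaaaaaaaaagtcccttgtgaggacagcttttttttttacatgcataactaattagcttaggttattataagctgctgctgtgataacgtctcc
The first window holds 15 CG dinucleotides and is 59.6% G or C. At least that many were found in 27.3% of 32841 RefSeq windows of the same length. The last window holds 3 CG dinucleotides, a count that 71.0% of windows reach or pass, and is 36.0% G or C. The middle one holds 4 CG dinucleotides. TGACGTCA, which reads the same on both strands, occurred in the last window only among the 3, at base 98, and in 1.55% of all windows. The E-box CACGTG and the variant CATGTG, the letters that Mitf itself is known to bind, were searched on both strands. Neither occurred in the 6 windows of Mitf, Kit and Kitl, and they occurred in 6.02% and 12.3% of all windows. The windows of Kit overlap almost wholly, and 6 windows are too few to set an absence against such shares. The 33 features cannot be assigned to a start from the sources used here.

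Kit, the receptor, was the bright gene of the 4, and its arms lay close together. As the median over 10 features it read 105.6 units with hairpin 1 and 103.2 with hairpin 3, against 85.5 with the luciferase hairpin and 102.8 with the empty vector. Both Mtf2 RNAi arrays lay above both controls, by 0.27 and 0.30 log2 over the luciferase array but by 0.0053 and 0.038 log2 over the empty-vector array. The log2 level was 6.71 ± 0.02 in the Mtf2 RNAi arm and 6.55 ± 0.19 in the control arm (SD, n = 2 arrays each), a difference of 0.15 log2 or 1.11-fold. Without the luciferase array it was 0.022 log2, and without the empty-vector array 0.29.

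On single Kit features the difference ran from -0.31 to 0.96 log2. It was above 0 on 8 of 10 spots, and the arms were apart on 6, all with Mtf2 RNAi higher. Feature 2705 had the largest, with 121.1 and 143.2 units with hairpins 1 and 3 against 73.7 with the luciferase hairpin and 62.1 with the empty vector. Feature 24274 followed at 0.68 log2, with 121.9 and 96.4 units against 57.2 and 80.3. The lowest difference came from feature 20608, which read 94.6 and 80.7 units with hairpins 1 and 3 and 87.6 with the luciferase hairpin, and was high only with the empty vector, at 134.1 units. Feature 33898 was high with hairpin 3 alone, at 161.7 units, against 94.2 with hairpin 1, 88.5 with the luciferase hairpin and 112.9 with the empty vector. Feature 40765 was low with hairpin 1, at 71.3 units, against 136.9 with hairpin 3, 123.3 with the luciferase hairpin and 109.4 with the empty vector. Its difference was -0.23 log2. The SD over Kit spots within an array was 0.34 to 0.38 log2. It can include level offsets that a spot keeps on every array, so it is not the error of the 0.15 log2 between the arms.

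The Kit promoter is shown for its CG dinucleotides, in capitals, in the 250 bases before the first of its 2 annotated starts, which lie 4 bases apart on the plus strand of GRCm38.p6.
Kit, chr5:75574737-75574986: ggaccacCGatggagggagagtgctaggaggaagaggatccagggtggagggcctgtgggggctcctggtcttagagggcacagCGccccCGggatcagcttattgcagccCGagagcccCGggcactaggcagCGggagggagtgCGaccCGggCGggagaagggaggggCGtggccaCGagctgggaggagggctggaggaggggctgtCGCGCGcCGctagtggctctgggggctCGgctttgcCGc
This window holds 17 CG dinucleotides and is 70.8% G or C, and 23.5% of all windows hold at least as many. In the mouse gene order, Kit lies between Pdgfra and Kdr, which encode related receptor tyrosine kinases. Pdgfra read 2.54 and 2.10 units with hairpins 1 and 3 against 1.83 with the luciferase hairpin and 2.20 with the empty vector (median of 11 features), and its arms overlapped. Kdr read 1 (the floor) and 1.31 units with hairpins 1 and 3, against 1.53 and 1.18 with the luciferase hairpin and the empty vector (20 features), also with overlap.

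Kitl, the ligand, read higher in the Mtf2 RNAi arm at a level close to the floor. The median over its 11 features was 3.03 units with hairpin 1 and 2.48 with hairpin 3, against 1.50 with the luciferase hairpin and 2.09 with the empty vector. The arms did not overlap, and the order from high to low was hairpin 1, hairpin 3, empty vector, luciferase hairpin. In log2 the level was 1.46 ± 0.20 in the Mtf2 RNAi arm and 0.82 ± 0.34 in the control arm (SD, n = 2 arrays each), a difference of 0.63 log2 or 1.55-fold. Without the luciferase array the difference was 0.39 log2, and without the empty-vector array 0.88.

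Of the 11 Kitl features, 9 were above 0, with differences from -0.19 to 1.06 log2 (median 0.50). On 6 the arms were apart, all with Mtf2 RNAi higher. Hairpin 1 read above both controls on 9 features and hairpin 3 on 6. Feature 2244 had the largest difference, with 4.39 and 2.48 units with hairpins 1 and 3 against 1.34 with the luciferase hairpin and 1.88 with the empty vector. Feature 44238 read 3.38 and 2.20 units against 1.21 and 1.99. Feature 22892 lay at the floor on 3 of 4 arrays, with 1.31 units on the empty-vector array, and feature 31881 was at the floor with hairpin 3 only.

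Neighbours in the order of Kitl levels overlapped. Hairpin 3 read below hairpin 1 on 7 of 11 features and above it on 3. It read above the empty vector on 7 and below it on 4. The luciferase hairpin read below the empty vector on 9 features, a gene-level difference of -0.48 log2, which is about as large as the step between hairpin 3 and the mean of the controls (0.49 log2). The Kitl promoter is shown for the same feature, CG dinucleotides in capitals, in the 250 bases before its annotated start on the plus strand of GRCm38.p6.
Kitl, chr10:100015571-100015820: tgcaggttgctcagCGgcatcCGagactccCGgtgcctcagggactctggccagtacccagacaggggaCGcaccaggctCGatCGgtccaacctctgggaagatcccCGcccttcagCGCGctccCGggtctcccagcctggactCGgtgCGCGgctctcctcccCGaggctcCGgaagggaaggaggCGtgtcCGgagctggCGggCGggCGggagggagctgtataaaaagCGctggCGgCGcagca
It holds 23 CG dinucleotides, the most of the 6 windows of these genes, and 13.3% of all windows hold at least as many.

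Gpr143 read lower in the Mtf2 RNAi arm on its single feature, number 22146. Its scaled intensity was 0.626 with hairpin 1 and 1.37 with hairpin 3, against 3.97 with the luciferase hairpin and 2.72 with the empty vector. Both Mtf2 RNAi arrays lay below both control arrays. With hairpin 1 at the floor, the log2 level was 0.23 ± 0.32 in the Mtf2 RNAi arm and 1.72 ± 0.39 in the control arm (SD, n = 2 arrays each), and the difference was -1.49 log2. Its size depends on the floor: it was -1.83 log2 with a floor of 0.5 units and 0 with a floor of 4 units, under which all 4 arrays lie. With 1 spot, the spread over spots is not known for this gene. Gpr143 has no window in the promoter table.

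**Figure D2:**
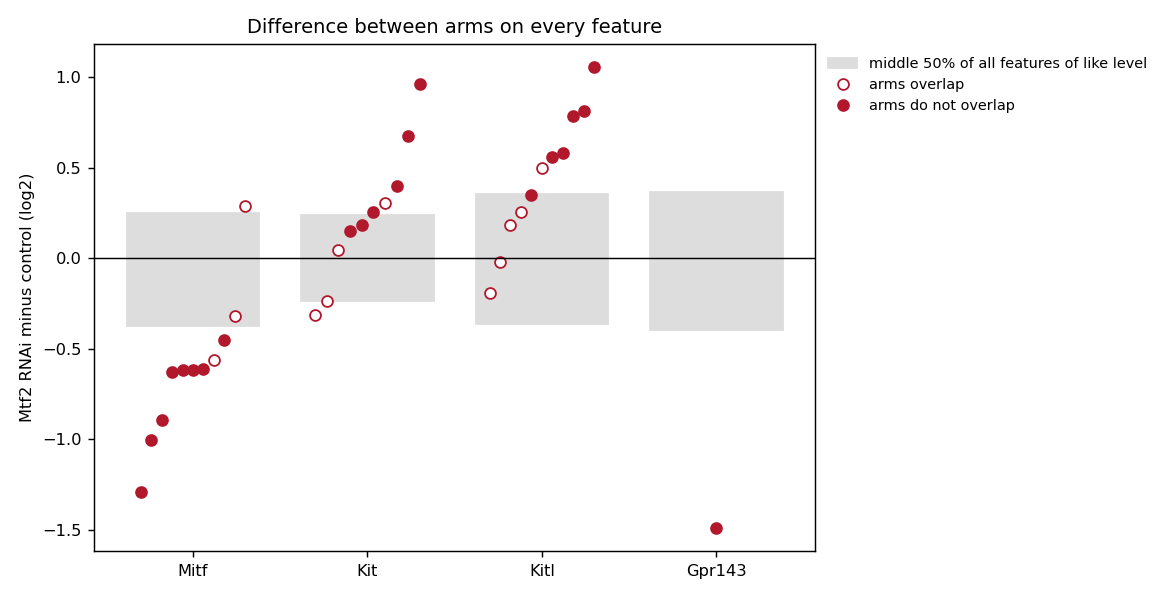
Mtf2 RNAi minus control difference (log2, vertical axis) on each of the 33 features, sorted within its gene; filled points have arms that do not overlap, and the grey boxes span the middle 50% of all features with a mean level within 0.25 log2 of the gene's. For Mitf, 10 of 11 points lie below 0, for Kitl 9 of 11 and for Kit 8 of 10 lie above 0, and the Gpr143 point lies at -1.49.

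Dim and bright features were set beside each gene at its own level. Among the 2206 features within 0.25 log2 of the mean level of Mitf, the middle 50% of differences ran from -0.37 to 0.25 log2 with a median of -0.04, and 22.3% had the arms apart with Mtf2 RNAi lower. Around Kitl, 2626 features had a middle range of -0.36 to 0.36 log2, and 15.3% had the arms apart with Mtf2 RNAi higher. Around Kit, 1166 features ranged from -0.24 to 0.24 log2, with 15.7% apart in the higher direction. Around Gpr143, 2676 features ranged from -0.40 to 0.36 log2, with 19.4% apart in the lower direction. The gene-level differences of Mitf and Kitl and the feature of Gpr143 lay outside these ranges, and that of Kit lay inside. The ranges are of single features, while the values of Mitf, Kit and Kitl are medians over 10 or 11 features, an unlike measure. Since the genes were chosen on this contrast, nothing is drawn from these positions.

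Genes that the platform carries at least 8 times give a comparable setting for Mitf, Kit and Kitl. There are 223 such genes, of which 182 had a gene-level value above the floor on at least 1 array. In this set the arms did not overlap in the higher direction for 13.7% and in the lower direction for 23.1% of genes. The middle 50% of gene-level differences ran from -0.18 to 0.07 log2. Mitf had the fourth lowest difference, with 3 genes below it, and Kitl the third highest, with 2 above it, while 24 genes lay above Kit. These ranks follow a choice made with this contrast known, so nothing is drawn from them. The mean SD over spots within an array was 0.75 log2 for Mitf, 0.48 for Kitl and 0.37 for Kit, beside a median of 0.61 over the 182 genes. The value for Mitf includes feature 19708.

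**Figure D3:**
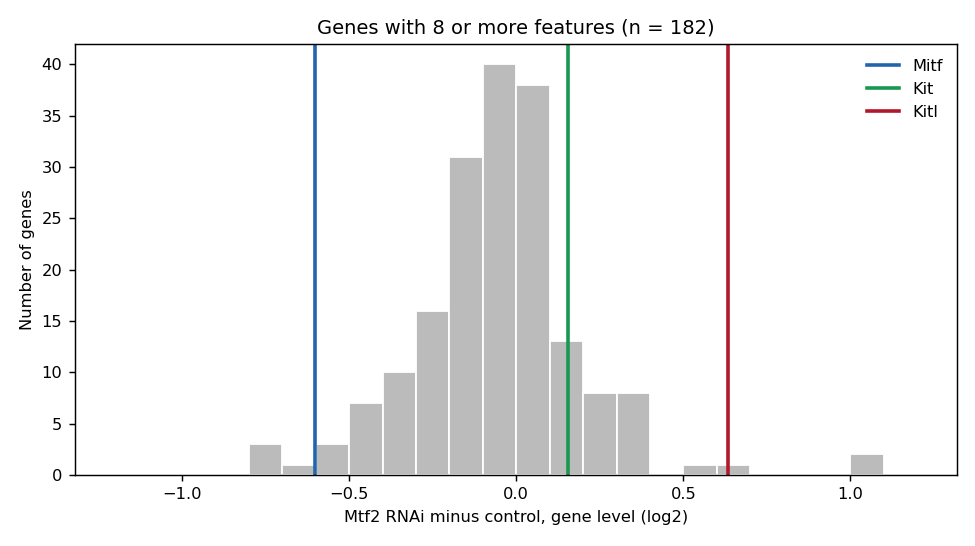
Histogram of the gene-level Mtf2 RNAi minus control difference (log2, horizontal axis) for the 182 genes with 8 or more features above the floor, as numbers of genes; vertical lines mark Mitf at -0.60, Kit at 0.15 and Kitl at 0.63. Of the 182 genes, 3 lie below Mitf, 24 above Kit and 2 above Kitl. Mitf, Kit and Kitl were chosen with this contrast known.

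Differences inside an arm mix the difference between plasmids with that between single arrays, as each plasmid has 1 array. Hairpin 3 minus hairpin 1 was 0.22 log2 for Mitf, -0.03 for Kit, -0.29 for Kitl and 0.45 for Gpr143. The luciferase hairpin minus the empty vector was -0.25 log2 for Mitf, -0.27 for Kit, -0.48 for Kitl and 0.55 for Gpr143. No gene of the 4 reached 1 log2 unit in either pair, which 5.65% of 16505 genes did for the hairpins and 8.80% for the controls, and 0% of the 182 repeat-spotted genes in both. Mitf, Kit and Kitl all read lower with the luciferase hairpin than with the empty vector, and features at the levels of these 3 genes had medians of -0.15, -0.09 and -0.13 log2 in that pair. In Mitf, Kitl and Gpr143 hairpin 1 lay farther from the mean of the controls than hairpin 3 did, at -0.72 against -0.49 log2 for Mitf, 0.78 against 0.49 for Kitl and -1.72 against -1.26 for Gpr143. With 1 array for each hairpin this difference cannot be tested.

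**Figure D4:**
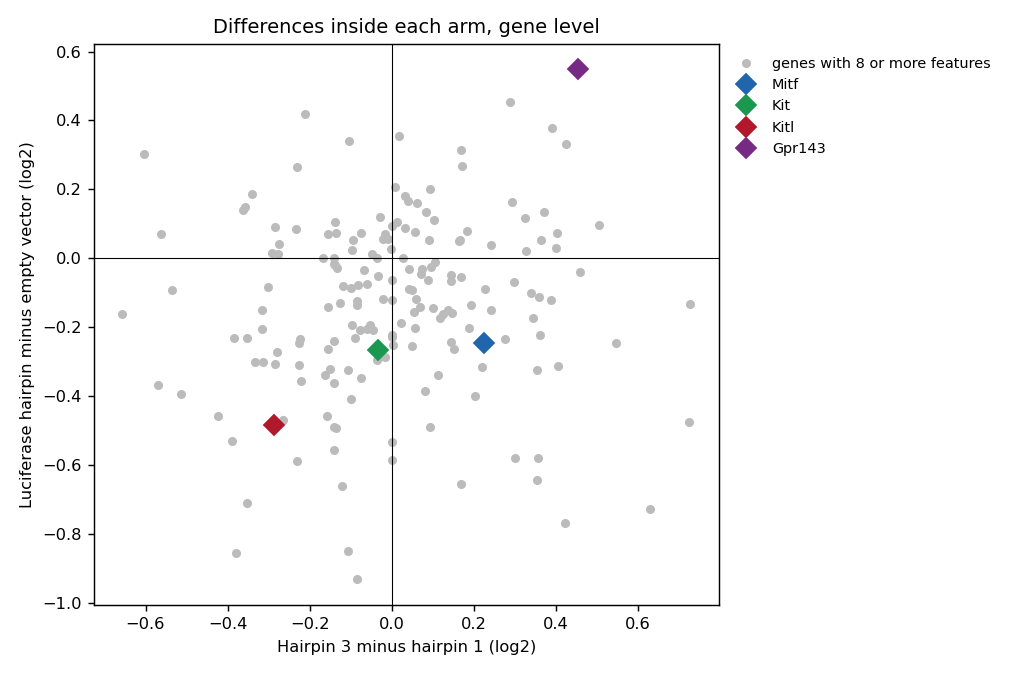
Difference inside the Mtf2 RNAi arm (hairpin 3 minus hairpin 1, log2, horizontal axis) against the difference inside the control arm (luciferase hairpin minus empty vector, log2, vertical axis) at gene level; grey points are the 182 repeat-spotted genes and diamonds the 4 genes. All 4 diamonds stay within 1 log2 unit on both axes, with Gpr143, which has 1 feature, at the upper right.

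The relatives and partners of the 4 genes were read at gene level, as the median over a gene's features, with limma over 16505 genes. None of those genes passed an adjusted p of 0.05 (0 of 16505, 0%, with 669 at an unadjusted p under 0.05, limma), and the smallest adjusted p was 0.881. Over all genes the arms did not overlap in the higher direction for 14.9% and in the lower direction for 17.9%, and the median difference was -0.0038 log2. Of the 16505 genes, 8185 read higher with Mtf2 RNAi and 8320 lower, which is the background for the counts of each list below. The closest relatives of Mitf, the factors Tfe3, Tfeb and Tfec that pair with it on DNA, had overlapping arms in all 3 cases. Tfe3 read 2.54 and 1.99 units with hairpins 1 and 3 against 2.78 with the luciferase hairpin and 1.15 with the empty vector, and 1 of its 3 features lies at a position with shifted neighbours. Tfeb read 3.20 and 3.86 units against 3.28 and 5.56, and Tfec 1.70 and 2.67 against 1.57 and 2.29.

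Genes that act upstream of Mitf had 4 of 9 members higher and 5 lower (median -0.03 log2), with arms apart for 1 in each direction. Lef1, a nuclear partner of beta-catenin that activates the melanocyte promoter of Mitf, read 2.79 and 3.23 units with hairpins 1 and 3, against 1.50 with the luciferase hairpin and 1.83 with the empty vector. Its difference was 0.86 log2 (limma, adjusted p = 0.881), but its other 2 features lay at 0.00 and 0.07. Edn3, a ligand for the endothelin receptor of melanocyte precursors, was at the floor on both Mtf2 RNAi arrays, against 1.39 and 1.27 units with the luciferase hairpin and the empty vector. Pax3 and Zeb2 were at the floor on all 4 arrays at gene level.

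Melanosome and pigment genes had 8 of 19 members higher and 11 lower, with a median of -0.10 log2. The arms were apart in the lower direction for 7 of them and in the higher direction for 2, and 0 passed the test (limma, smallest adjusted p = 0.881). Slc45a2, a melanosome transporter, read 3.89 and 3.48 units with hairpins 1 and 3 against 5.89 with the luciferase hairpin and 7.43 with the empty vector, a difference of -0.85 log2. Pmel, which forms the fibrils of the melanosome, read 10.7 and 9.14 units against 14.1 and 14.2 (-0.52 log2). Hps4, which serves the making of lysosome-related organelles in many cells, read 188.2 and 293.8 units against 344.3 and 313.5 (-0.48 log2). Slc45a2, Pmel and Hps4 rest on 1 feature each. Rab27a, which carries melanosomes to the cell edge, read 3.74 and 2.46 units against 2.37 and 1.98 (0.49 log2), all of it from 1 of its 2 features. Tyr and Tyrp1, the enzymes of melanin synthesis, were at the floor on all 4 arrays at gene level, over 10 features each.

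Genes outside pigmentation that have been reported as Mitf targets had 5 of 9 members higher and 4 lower (median 0.06 log2), with arms apart for 1 higher and 3 lower. The cell cycle inhibitor Cdkn1a, measured on 10 features, read 23.7 and 26.6 units with hairpins 1 and 3, against 28.1 with the luciferase hairpin and 44.3 with the empty vector. Its difference was -0.49 log2 and all 10 features were below 0, from -0.93 to -0.18 log2. The luciferase hairpin minus the empty vector was -0.65 log2 for Cdkn1a, larger in size than the difference between the arms. Not every feature was lower than with the luciferase hairpin: feature 18040 read 36.9 units with hairpin 3 against 28.5. Met, the receptor of hepatocyte growth factor, differed by -0.40 log2, with 0.78 on 1 of its 3 features. Ppargc1a and Acp5 differed by -0.20 and 0.08 log2.

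Around the receptor, proteins that carry the Kit signal had 16 of 23 members higher and 7 lower, with a median of 0.16 log2, and the arms were apart for 6 higher and 2 lower. The adaptor Grb2, which links receptors to Ras, read 398.4 and 393.3 units with hairpins 1 and 3 against 255.0 with the luciferase hairpin and 209.9 with the empty vector, a difference of 0.77 log2 on the median of 2 features that read 0.40 and 1.15. The ubiquitin ligase Cbl, which removes activated receptors, read 6.07 and 4.72 units against 2.79 and 3.28 (0.82 log2), while its other 2 features lay at -0.05 and 0.05. The Cbl feature at 0.05 was by far its brightest, at 131.8 to 186.6 units. Stat5b differed by 0.57 log2, with features at 0.56, -0.79 and 0.34. The feature at -0.79 was the bright one, at 32.5 to 98.0 units, and the others read no more than 2.61 units. The phosphatase Ptpn6, which dampens Kit, differed by -0.62 log2, with features at 0.77, -0.06 and -0.62, of which the one at -0.06 was the brightest. Receptors of the Kit class and their ligands had 3 of 8 members higher and 5 lower, with a median of -0.44 log2 and the arms apart for 1 higher and 4 lower. Flt3 was at the floor with hairpin 1 and read 2.31 units with hairpin 3, against 2.61 with the luciferase hairpin and 4.64 with the empty vector. Pdgfb, Il34 and Pdgfrb differed by -0.61, -0.44 and -0.44 log2. The 2 features of Pdgfb lay at -0.03 and -1.19 log2, the second of them at the floor with hairpin 1. Flt3, Il34 and Pdgfrb rest on 1 feature each.

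**Figure D5:**
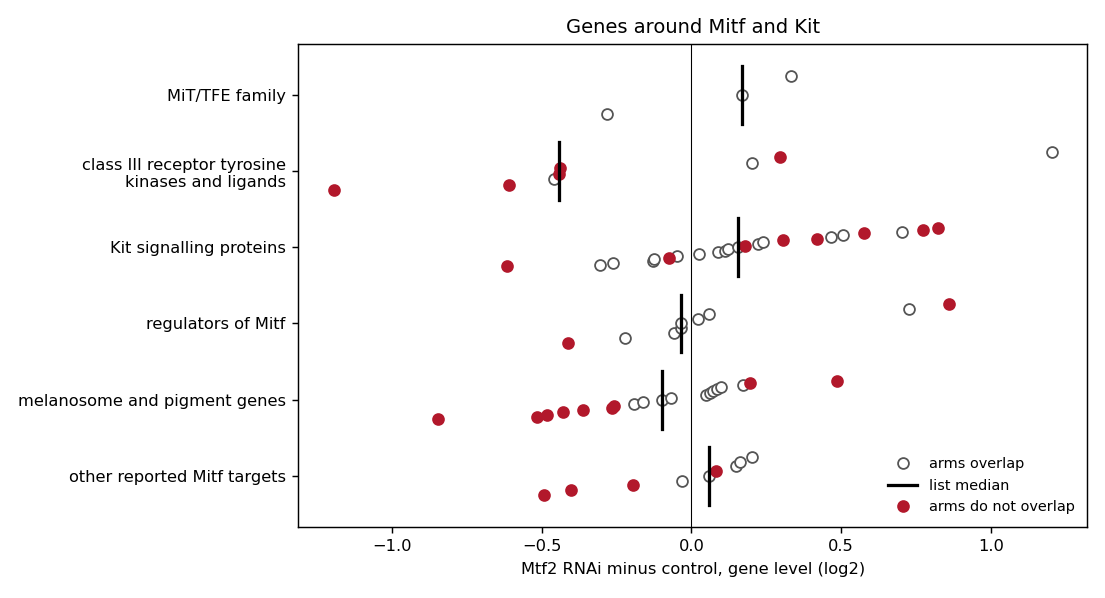
Gene-level Mtf2 RNAi minus control difference (log2, horizontal axis) for the tested genes of 6 lists around Mitf and Kit; filled points have arms that do not overlap, open points have arms that overlap, and black bars are list medians. List medians lie between -0.44 and 0.17 log2, and points fall on both sides of 0 in each list.

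Other cell types that use these genes were looked for by their markers. Sums below add up the gene levels of a list, so its brightest features weigh most, and a gene at the floor adds 1 unit. None of these markers passed the test (limma, smallest adjusted p = 0.881). Of 6 melanocyte markers on the array, Tyr and Tyrp1 were at the floor on all 4 arrays, and of the other 4, 2 read higher and 2 lower with Mtf2 RNAi (median -0.06 log2). Their summed level was 18.9 to 21.9 units in the Mtf2 RNAi arm and 23.1 to 25.3 in the control arm. The largest part came from Pmel, on 1 feature, at 10.7 and 9.14 units with hairpins 1 and 3 against 14.1 and 14.2. Of 8 mast cell markers, Cpa3 was at the floor on all arrays, 4 read higher and 3 lower (median 0.04 log2). The sum was 26.8 to 33.9 units in the Mtf2 RNAi arm and 22.2 to 25.3 in the control arm, with the largest part from Hdc, on 1 feature. Of 5 markers of the retinal pigment epithelium, Rpe65 and Ttr were at the floor on all arrays, 1 read higher and 2 lower (median -0.14 log2). The sum was 10.8 to 11.5 units in the Mtf2 RNAi arm and 13.5 to 15.1 in the control arm. Its largest part came from Rlbp1, on 1 feature. Of 9 fibroblast and feeder cell markers, Fap was at the floor on all arrays, 1 read higher and 7 lower (median -0.07 log2). They summed to 53.3 to 55.5 units in the Mtf2 RNAi arm and 56.6 to 80.6 in the control arm, most of it from Pdgfrb alone.

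The 9 embryonic stem cell markers were above the floor on every array, 8 of them higher and 1 lower with Mtf2 RNAi (median 0.26 log2), with the arms apart for 2 higher and 1 lower. Their sum was 10714 to 10858 units in the Mtf2 RNAi arm and 8020 to 8299 in the control arm, most of it from Dppa5a, Zfp42 and Klf4. The part of the marker levels of all these lists in the values of Mitf, Kit, Kitl and Gpr143 was not tested.

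Genes with the nearest profile to each of the 4 were found by the distance between log2 profiles over the 4 arrays, each centred on its mean, among 14056 genes with a feature above the floor on every array. For Mitf they were Ptp4a3, Pdk1 and Jmjd7, at distances of 0.05 to 0.06 log2, and 2262 genes lay within 0.5. For Kit they were 2810021J22Rik, Rmc1 and Cct7, all at 0.03, with 6516 genes within 0.5. For Kitl they were Gorasp1, Hfm1 and Tomm40, at 0.05 to 0.08, with 1130 within 0.5. For Gpr143 they were Pla2g1b, Hbb-y and Vmn1r-ps103, at 0.19 to 0.32, with 8 within 0.5. Gpr143 was at the floor with hairpin 1, so its profile depends on the floor. Profiles were centred but not scaled, so these counts also follow how far a gene's arrays lie from each other. A distance over 4 arrays is a description only, and all genes share these arrays and their shifts.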

How the data were processed

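Gene expression was measured on 1-colour Agilent arrays (Cy3 cRNA, Quick-Amp kit, per the labels' protocols) in 4 samples, 1 for each plasmid. The authors deposited 1 linear intensity per feature. How the arrays were scanned, background-corrected and normalized is not given in the sources used here. Since 2260 to 2879 values per array are at or below 0, a background had been subtracted. No detection calls were used.

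Arrays were scaled to a common 75th percentile (23.0 units), values under 1 unit were raised to 1, a floor taken from earlier work on these data, and log2 was taken. Features at the floor on all arrays (10118, 22.4%) were left out of tests. Features were named by the platform annotation (33653 with 1 symbol). A gene's level is the median over its features. The arms (2 arrays each) were compared in R 4.3.3 with limma 3.58.1 (lmFit, then eBayes with trend), adjusted by Benjamini-Hochberg over all features or all genes. Positions were judged by the median shift of neighbours in a 7 by 7 window, features running along 532 rows of 85. Promoter windows came from RefSeq (GRCm38.p6), which held 3 of the 4 genes.

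The members and the lists were chosen with earlier results of these data known. Named genes are all 4 members and, of each list, up to 4 genes with the largest difference among those whose arms do not overlap, with the Mitf relatives and both neighbours of Kit. P-values measure the spread between these 4 arrays alone, which may be technical. The number of arrays limits the precision. Alternatives were other scalings, floors and summaries over features, a started log, and each array left out in turn.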

Additional observations from a re-analysis of the deposited data

How the results depend on the processing

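Differences of Mitf, Kit, Kitl and Gpr143 were recomputed with no scaling, quantile normalization, floors of 0.5 and 4 units, log2(value + 16), without positions whose neighbours were shifted, with the mean or the brightest feature, and without each array. No sign turned under any of them. Adding 16 units before the log shrank the dim genes, by its construction, to -0.14 log2 for Mitf, 0.076 for Kitl and -0.19 for Gpr143. A floor of 4 units, above the median level of Kitl and Gpr143 on every array, set both differences to 0. Leaving out 1 array gave -0.73 to -0.48 log2 for Mitf, 0.022 to 0.29 for Kit, 0.39 to 0.88 for Kitl and -1.76 to -1.21 for Gpr143. The low ends for Kit and Kitl are those without the luciferase array. The mean over features gave 0.24 log2 for Kit, 0.44 for Kitl and -0.61 for Mitf. Leaving out the dim features 19708 of Mitf and 22892 of Kitl, a choice made after seeing the data, gave -0.60 and 0.66 log2.

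The count of features called by limma was 0 under the other scalings, floors and log and without shifted positions, while testing all 45220 features called 36. All 36 were at the floor on both arrays of at least 1 arm, at no more than 2.13 units, and 0 of them belong to the 4 genes. Leaving out 1 array also gave 0, but then 1 arm is a single array, assumed to vary like the other arm, and the spread rests on that pair alone, so this says nothing about stability. No paired analysis was possible because the labels give no replicate numbers. Low signal limits Mitf, Kitl and Gpr143, which stand within a few units of the floor, and Gpr143 rests on 1 spot.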

Other observations

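Primordial germ cells depend on Kit and Kitl as well, and 7 of their marker genes were on the arrays, 4 of them higher and 3 lower with Mtf2 RNAi (median 0.12 log2), with the arms apart for 1 in each direction. The genes named here were chosen after their values were seen. Nanos3, an RNA-binding protein of early germ cells, read 4.27 and 3.31 units with hairpins 1 and 3, against 1.55 with the luciferase hairpin and 1.87 with the empty vector (1.14 log2, limma adjusted p = 0.881). Prdm1, a repressor that sets the germ cell fate, read 5.22 and 4.61 units, against 8.72 and 9.09 (-0.86 log2, limma adjusted p = 0.881). Ddx4, a helicase of germ cells, had 1 array apart from the other 3: it read 312.4 and 254.4 units with hairpins 1 and 3, against 31.3 with the luciferase hairpin and 255.6 with the empty vector. Of 7 mast cell markers above the floor, a type that also depends on Kit, 4 read higher and 3 lower (median 0.04 log2), and the arms were apart for 2, both higher. Of these, Fcer1a read 5.30 and 7.17 units with hairpins 1 and 3, against 4.58 and 3.29, and Mcpt4, with 1 of 2 features at a position with shifted neighbours, read 3.45 and 2.94 against 2.04 and 1.68. Tpsb2, Tpsab1 and Ms4a2 differed by -0.18, -0.20 and -0.20 log2, with overlapping arms. Apart from Mcpt4, each of these germ cell and mast cell genes rests on 1 feature.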
